A study of Homo sapiens with 12 samples.

Results

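The mRNAs followed here are 10 transcriptional outputs of RAS-ERK signaling below receptor tyrosine kinases: DUSP4, DUSP5, DUSP6, SPRY2, SPRY4, SPRED1, SPRED2, ETV4, ETV5 and PHLDA1. They are a list of names set out with earlier results of these data known, taken from the 57773 genes of the count files, and all 10 had enough counts to be among the 21518 genes tested. The RNA was that of WI-38, a line of human diploid lung fibroblasts, grown in medium with fetal bovine serum. In all 4 groups the cells had been transfected with a pool of siRNAs at 25 nM the day before treatment began. The first group received the non-targeting pool siCtrl and vehicle (DMSO) and kept dividing, and is called proliferating. The other groups were rendered senescent with 50 µM etoposide, a topoisomerase II inhibitor that breaks DNA, for 8 days, after transfection with siCtrl, with siNTRK2, directed at the mRNA of the neurotrophin receptor TrkB, or with siBDNF, directed at the mRNA of the TrkB ligand BDNF. Each group had 3 libraries. The labels do not say that these were separate cultures, so p-values measure the spread between these libraries, which may be technical. Each target was silenced with a single pool in a single cell line, so other effects of that pool cannot be told apart from the loss of its target.

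Growth factor receptors switch on RAS, which passes the signal through RAF and MEK kinases to ERK1 and ERK2. Active ERK enters the nucleus and raises transcription of a set of genes, many of whose products then restrain the pathway. Dual-specificity phosphatases remove the activating phosphates from ERK, Sprouty and SPRED proteins act further upstream at the receptor and RAS steps, and the ETS factors ETV4 and ETV5 carry the signal on to other genes. TrkB is one of the receptors that feed into this cascade, and in fibroblasts FGF, PDGF and EGF receptors do so as well. Abundance of these mRNAs is often used as a readout of ERK output, but mRNA counts do not measure ERK phosphorylation itself.

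Total counts ranged from 31567912 (siBDNF, replicate 1) to 72328151 (proliferating, replicate 2). NTRK2 mRNA was close to the limit of detection, with 7, 15 and 10 counts in siCtrl senescent libraries and 0 counts in each siNTRK2 library. It had 11, 1 and 1 counts in proliferating libraries and 10, 23 and 29 in siBDNF libraries. BDNF mRNA was 162 ± 6.32 CPM (SD, n = 3) in siCtrl senescent cells and 47.1 ± 2.44 CPM (SD, n = 3) after siBDNF, where CPM are counts scaled to library sizes adjusted by the TMM method. The 9 fibroblast markers summed, in CPM, from 39158 to 40871 in proliferating, 32511 to 36830 in siCtrl senescent, 42705 to 45366 in siNTRK2 and 37503 to 39513 in siBDNF libraries. The 4 epithelial markers summed to 0.233 to 0.342 CPM in proliferating, 0.969 to 1.05 in siCtrl senescent, 0.670 to 0.905 in siNTRK2 and 1.23 to 1.48 in siBDNF libraries. For the 4 leukocyte markers the sums were, in the same order, 0.157 to 0.215, 1.35 to 1.76, 0.953 to 1.19 and 1.75 to 1.95 CPM, with KRT5 and PTPRC at 0 in proliferating libraries and PTPRC at most at 1.07 CPM in senescent ones. The endothelial sum (3 of 4 symbols matched) was 75.2 to 77.9 CPM in proliferating, 34.1 to 35.9 in siCtrl senescent, 34.4 to 40.9 in siNTRK2 and 24.3 to 25.2 in siBDNF libraries, nearly all of it from TEK, with CDH5 at 0 in proliferating libraries and at most 0.253 CPM in the others. The 4 neuronal markers gave 9.39 to 11.1, 11.8 to 12.4, 13.7 to 16.7 and 14.8 to 15.3 CPM. The share of counts from mitochondrial genes also moved with the groups, from 1.6 to 1.99% in proliferating, 3.33 to 3.65% in siCtrl senescent, 2.50 to 2.85% in siNTRK2 and 1.78 to 2.38% in siBDNF libraries. MKI67, a marker of dividing cells, was lower with senescence (siCtrl senescent against proliferating, log2 fold change -3.68) and higher with siNTRK2 (1.72) and siBDNF (0.91) than with siCtrl in senescent cells. LMNB1, the lamin B1 gene, was at -4.20, 0.62 and -0.18 in these comparisons and CDKN1A, which encodes p21, at 1.62, -0.50 and -0.04, the siBDNF values not passing the test (adjusted p = 0.375 and 0.548). CDKN2A was at 0.24, 0.21 and 0.14, again not called with siBDNF (adjusted p = 0.140). The part of the BDNF level, of these marker sums, of the mitochondrial share and of these check genes in the differences described here was not tested. In bulk RNA, a change in the proportion of cells that make an mRNA and a change in its amount per cell cannot be told apart.

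With senescence, the feedback mRNAs split. DUSP4, DUSP5, DUSP6, SPRY2, SPRY4 and ETV5 rose, SPRED1, ETV4 and PHLDA1 fell, and SPRED2 did not pass the test, a count of 6 of 10 higher and 3 of 10 lower (edgeR's quasi-likelihood test, adjusted p under 0.05). Among all genes tested, 29.8% were called higher and 28.3% lower in the same comparison. Only DUSP4, DUSP6 and SPRY2 also passed an absolute log2 fold change of 1, as did 16.7% of all genes. The median log2 fold change of the 10 mRNAs was 0.45, against 0.025 over all genes. In senescent cells, siBDNF raised 6 of the 10 (DUSP4, DUSP5, DUSP6, SPRY2, SPRY4 and PHLDA1) and lowered 0 (all genes: 10.3% higher, 10.2% lower). At an unadjusted p under 0.05 the lower count was 2 (SPRED1 and ETV5), and DESeq2 called 1 of them, SPRED1. The median was 0.20 for the 10 mRNAs and 0.0040 over all genes. With siNTRK2, 0 of the 10 were called higher by edgeR, also at an unadjusted p under 0.05 and by DESeq2, and ETV4 and PHLDA1 were called lower (all genes: 11.1% higher, 10.0% lower). At an unadjusted p under 0.05 the lower count with siNTRK2 was 5 (SPRY4, SPRED2, ETV4, ETV5 and PHLDA1), and 9 of the 10 values were negative. The median with siNTRK2 was -0.11, against -0.0024 over all genes. No member passed the cutoff of 1 with either siRNA, which 0.957% of genes passed with siNTRK2 and 0.609% with siBDNF.

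The siNTRK2 and siBDNF comparisons share the same 3 siCtrl senescent libraries, so the difference between the siRNAs was tested directly, siNTRK2 against siBDNF. In this comparison 8 of the 10 mRNAs were lower with siNTRK2, DUSP4, DUSP5, DUSP6, SPRY2, SPRY4, SPRED2, ETV4 and PHLDA1, where 7.86% of all genes were. None was higher by edgeR (0 at an unadjusted p under 0.05 and 0 by DESeq2, against 8.84% of all genes called higher), and SPRED1 and ETV5 did not pass the test. The median log2 fold change was -0.34 for the 10 mRNAs and -0.0037 over all genes, and no member passed an absolute value of 1, as 1.16% of genes did.

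**Figure D1:**
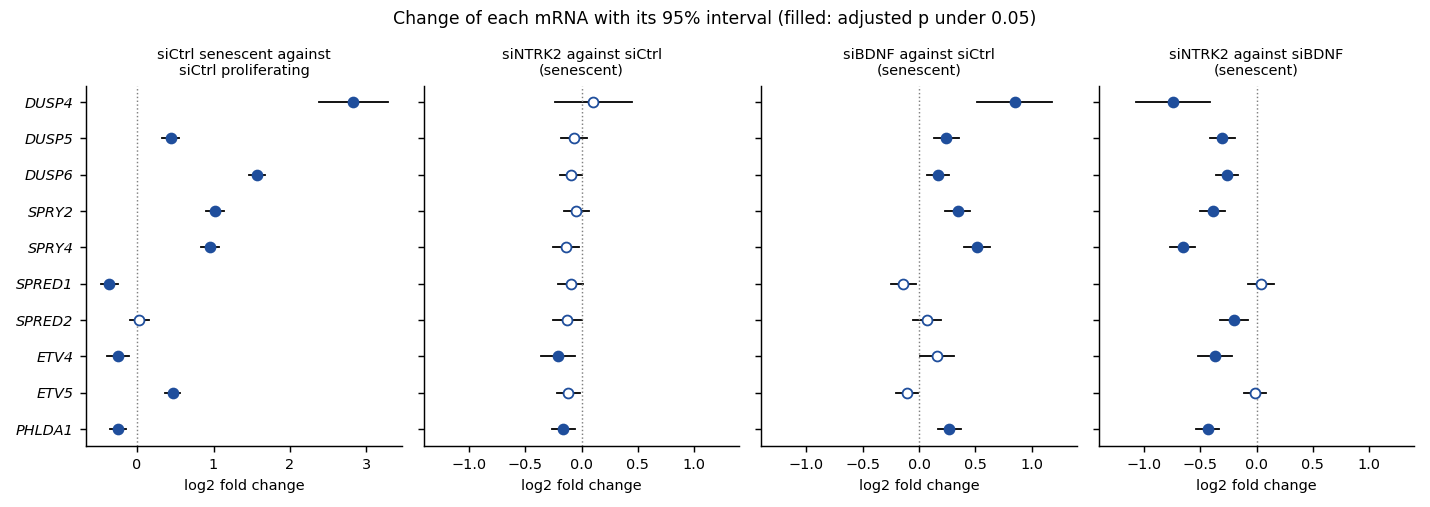
Log2 fold change (x axis) of each of the 10 mRNAs (y axis) in the 4 comparisons, with bars for the 95% interval and filled points for an adjusted p under 0.05 from edgeR. The senescence panel has its own x axis, on which DUSP4 lies farthest to the right at 2.83, and in the siNTRK2 against siBDNF panel 9 of 10 points lie below 0.

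Promoter sequences from RefSeq (GRCh38.p14, 250 bases upstream of the gene start, 5′ to 3′ on the gene's strand) were found and used for 6 of the 10 genes. Those of DUSP6, SPRY2, SPRY4 and PHLDA1 are shown because these mRNAs rose together with siBDNF and their windows hold an element through which ERK-regulated factors can act, an ETS element (CGGAAG) or the core of a cAMP response element (TGACG), given in capitals on whichever strand it lies.
DUSP6: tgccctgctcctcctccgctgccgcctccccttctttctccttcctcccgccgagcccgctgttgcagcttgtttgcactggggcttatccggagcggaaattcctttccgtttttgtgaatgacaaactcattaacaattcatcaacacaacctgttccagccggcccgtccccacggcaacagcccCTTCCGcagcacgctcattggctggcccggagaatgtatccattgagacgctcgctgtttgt
SPRY2: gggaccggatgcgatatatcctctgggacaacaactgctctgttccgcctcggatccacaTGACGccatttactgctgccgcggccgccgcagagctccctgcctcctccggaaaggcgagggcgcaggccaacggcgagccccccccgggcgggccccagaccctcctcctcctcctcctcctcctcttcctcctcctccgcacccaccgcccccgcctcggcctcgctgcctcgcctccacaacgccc
SPRY4: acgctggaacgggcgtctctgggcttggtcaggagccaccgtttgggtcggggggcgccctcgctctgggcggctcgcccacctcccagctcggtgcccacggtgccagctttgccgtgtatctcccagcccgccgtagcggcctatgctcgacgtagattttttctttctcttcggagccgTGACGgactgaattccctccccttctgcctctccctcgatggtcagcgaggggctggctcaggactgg
PHLDA1: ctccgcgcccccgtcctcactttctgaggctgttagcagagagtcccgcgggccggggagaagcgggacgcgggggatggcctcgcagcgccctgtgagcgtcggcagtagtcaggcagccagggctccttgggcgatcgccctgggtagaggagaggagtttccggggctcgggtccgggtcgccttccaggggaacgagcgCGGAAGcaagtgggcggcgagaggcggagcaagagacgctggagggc
All 4 genes lie on the minus strand, DUSP6 at chr12:89352502-89352751, SPRY2 at chr13:80341127-80341376, SPRY4 at chr5:142324248-142324497 and PHLDA1 at chr12:76031777-76032026. Counted back from the gene start, the ETS element of PHLDA1 lay at -47 to -42 and that of DUSP6, which reads CGGAAG on the opposite strand, at -62 to -57. The TGACG core lay at -68 to -64 in SPRY4 and at -190 to -186 in SPRY2. Both strands were searched over 27305 promoters of the same length, of which 16.8% held CGGAAG and 21.7% held TGACG. No window of the 6 genes held TGANTCA (AP-1, in 6.6% of promoters), TGACGTCA (a full cAMP response element, of which TGACG is a part, 1.77%), TGAATGAA or TGAATGGA (the capicua repressor's elements, 1.42% and 0.875%) or a CArG box (1.14%). Entries were not found for DUSP5, ETV4 and ETV5, and the DUSP4 window is not reported here. DUSP4 and DUSP5 also rose with siBDNF, so the windows do not cover all the mRNAs that rose. Whether the elements go with the siBDNF changes was not tested. The windows of SPRED1 and SPRED2 held none of the elements searched. These matches describe the letters only.

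**Figure D2:**
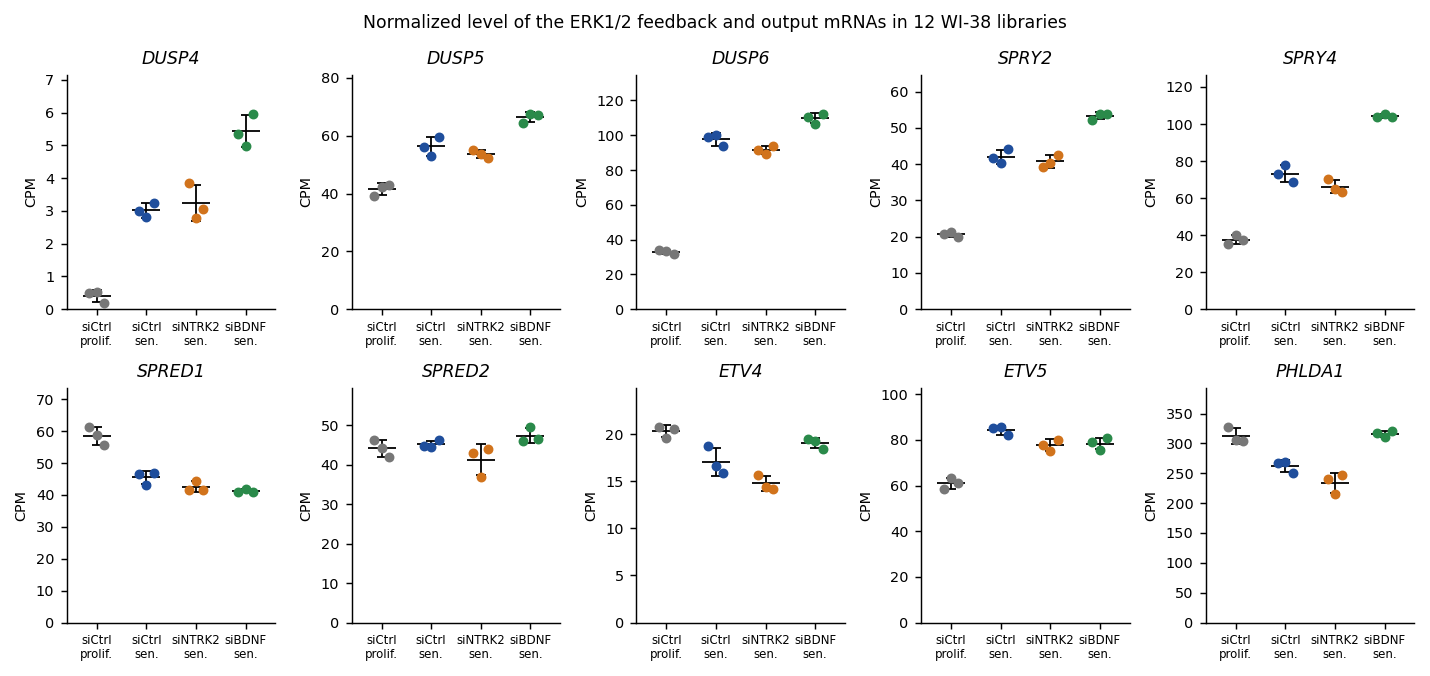
Normalized level in CPM (y axis, from 0, own scale in each panel) of the 10 mRNAs in each of the 12 libraries, by group (x axis), with the mean and SD of 3 libraries. DUSP6 was at 33.0 CPM in proliferating and 97.6 CPM in siCtrl senescent cells, and for SPRY4 the 3 siBDNF libraries (103.8 to 105.6 CPM) lie above the libraries of the other groups.

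On GRCh37, the build of the counts, GENCODE places DUSP5 (ENSG00000138166) at chr10:112257665-112271291 and SPRED1 (ENSG00000166068) at chr15:38545037-38649450 on the plus strand. The phosphatase gene DUSP6 (ENSG00000139318) at chr12:89741012-89746278 and the Sprouty genes SPRY2 (ENSG00000136158) at chr13:80910111-80915261 and SPRY4 (ENSG00000187678) at chr5:141689992-141706020 lie on the minus strand. So do SPRED2 (ENSG00000198369) at chr2:65537985-65659771, ETV4 (ENSG00000175832) at chr17:41605212-41656988, ETV5 (ENSG00000244405) at chr3:185764103-185828107 and PHLDA1 (ENSG00000139289) at chr12:76419227-76425556. DUSP4 is ENSG00000120875. Counts cover all exons of a gene and do not separate isoforms.

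DUSP6 encodes the cytoplasmic phosphatase that is most selective for ERK1/2. Its libraries held 34.0, 33.4 and 31.5 CPM in proliferating cells and 98.9, 100.4 and 93.6 CPM in siCtrl senescent cells. Levels were 91.5, 89.1 and 93.9 CPM with siNTRK2 and 110.8, 106.4 and 112.4 CPM with siBDNF. Every senescent library therefore stood above every proliferating library, the siBDNF libraries stood above the other senescent libraries, and siNTRK2 and siCtrl overlapped. The rise with senescence was 2.96-fold (log2 fold change 1.56, SE 0.050, adjusted p = 1.09e-18). With siBDNF, DUSP6 was 1.13-fold higher than with siCtrl (log2 fold change 0.17, SE 0.048, adjusted p = 0.0111), a call that was lost without siCtrl senescent replicate 3 (0.14, adjusted p = 0.0794) or siBDNF replicate 3 (0.15, adjusted p = 0.0695). The siNTRK2 change did not pass the test (-0.09, 95% interval -0.19 to 0.01, adjusted p = 0.182), whereas the level with siNTRK2 was below that with siBDNF (-0.26, SE 0.048, adjusted p = 2.71e-04).

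DUSP4 and DUSP5 encode nuclear phosphatases that are themselves induced by ERK signaling. DUSP4 was the least abundant of the 10 mRNAs, with 27, 36 and 7 counts in the proliferating libraries, or 0.484, 0.513 and 0.189 CPM. In siCtrl senescent cells it reached 2.99, 2.81 and 3.25 CPM, a 7.10-fold rise (log2 fold change 2.83, SE 0.218, adjusted p = 3.65e-11) with no overlap between the groups. It was 3.85, 2.78 and 3.07 CPM with siNTRK2, overlapping siCtrl, and 5.34, 4.99 and 5.97 CPM with siBDNF, above every other library. The siBDNF rise was 1.80-fold (log2 fold change 0.85, SE 0.161, adjusted p = 4.17e-04), the largest of the 10 with either siRNA. The siNTRK2 value was 0.11 with a 95% interval from -0.24 to 0.45, wider than for the other members, and siNTRK2 against siBDNF gave -0.74 (SE 0.160, adjusted p = 0.00166).

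DUSP5 was abundant by comparison. It held 39.2, 42.4 and 43.1 CPM in proliferating and 56.2, 53.0 and 59.7 CPM in siCtrl senescent libraries, which did not overlap. With siNTRK2 the libraries held 55.1, 53.8 and 52.3 CPM, within or just below the siCtrl range, and with siBDNF 64.4, 67.6 and 67.2 CPM, above all others. DUSP5 thus rose 1.36-fold with senescence (log2 fold change 0.44, SE 0.055, adjusted p = 1.88e-07) and 1.18-fold with siBDNF (0.24, SE 0.054, adjusted p = 0.00219). The siNTRK2 value was -0.07 (95% interval -0.18 to 0.04, adjusted p = 0.426), and the direct comparison of the siRNAs gave -0.31 (SE 0.054, adjusted p = 2.02e-04).

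SPRY4 and SPRY2 encode Sprouty proteins, which are induced by growth factors and block the passage of the signal from receptors to RAS and RAF. SPRY4 held 35.3, 40.0 and 37.5 CPM in proliferating and 72.9, 77.8 and 68.6 CPM in siCtrl senescent libraries. With siNTRK2 it was 70.4, 64.8 and 63.5 CPM, and with siBDNF 103.9, 105.6 and 103.8 CPM. The siBDNF libraries were the highest and close to each other, the siNTRK2 libraries overlapped the lower end of siCtrl, and the proliferating libraries lay below all of these. SPRY4 rose 1.94-fold with senescence (log2 fold change 0.96, SE 0.057, adjusted p = 2.84e-13) and 1.43-fold with siBDNF (0.51, SE 0.055, adjusted p = 2.68e-07). With siNTRK2 it was at -0.14 (95% interval -0.26 to -0.03), which did not pass after adjustment (adjusted p = 0.0726) but did without siNTRK2 replicate 1 (-0.19, adjusted p = 0.0276). The direct comparison gave -0.66 (SE 0.056, adjusted p = 3.93e-09), the lowest p of the 10 mRNAs in it.

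SPRY2 held 20.8, 21.3 and 19.9 CPM in proliferating libraries and 41.6, 40.4 and 44.1 CPM in siCtrl senescent libraries, a 2.03-fold rise (log2 fold change 1.02, SE 0.057, adjusted p = 6.68e-14). After siNTRK2 its libraries held 39.3, 40.4 and 42.6 CPM, which could not be separated from siCtrl (-0.05, 95% interval -0.16 to 0.07, adjusted p = 0.616). The siBDNF libraries held 52.2, 53.8 and 53.9 CPM and lay above every other library. The siBDNF rise was 1.27-fold (0.34, SE 0.054, adjusted p = 5.93e-05), and siNTRK2 against siBDNF gave -0.39 (SE 0.055, adjusted p = 1.06e-05). The TGACG core printed above lies near the start in SPRY4 and farther upstream in SPRY2.

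SPRED1 and SPRED2 encode Sprouty-related proteins that bring neurofibromin, the product of NF1, to the membrane, where it switches RAS off. SPRED1 was the inhibitor that fell with senescence, from 61.3, 58.7 and 55.6 CPM in proliferating to 46.5, 43.0 and 46.9 CPM in siCtrl senescent libraries, with no overlap (0.776-fold, log2 fold change -0.37, SE 0.054, adjusted p = 2.65e-06). It held 41.4, 44.5 and 41.6 CPM with siNTRK2 and 41.0, 41.9 and 41.0 CPM with siBDNF. All 3 siBDNF libraries were just below the siCtrl range, and the siRNA groups overlapped each other. The changes were -0.10 with siNTRK2 (95% interval -0.21 to 0.01, adjusted p = 0.225), -0.14 with siBDNF (95% interval -0.25 to -0.03, adjusted p = 0.0771) and 0.04 between them (95% interval -0.07 to 0.15, adjusted p = 0.682). SPRED1 depended on the handling of transcript length and GC content: with an offset for both, chosen after the data were seen, the values were -0.14 with senescence (adjusted p = 0.0252), -0.25 with siNTRK2 (adjusted p = 0.00129) and -0.36 with siBDNF (adjusted p = 2.02e-05), so that the siRNA changes passed and the senescence change shrank.

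SPRED2 was nearly level with senescence. It held 46.3, 44.2 and 42.0 CPM in proliferating, 44.8, 44.5 and 46.1 CPM in siCtrl senescent, 43.0, 36.9 and 44 CPM with siNTRK2 and 46.0, 49.6 and 46.6 CPM with siBDNF. The lowest value was siNTRK2 replicate 2, and the proliferating and siCtrl senescent libraries overlapped. The senescence change was 0.03 with a 95% interval from -0.10 to 0.16, and neither siRNA passed against siCtrl (siNTRK2 -0.13, adjusted p = 0.153, siBDNF 0.07, adjusted p = 0.484). SPRED2 was lower with siNTRK2 than with siBDNF (-0.20, SE 0.062, adjusted p = 0.0267), but not without siNTRK2 replicate 2 (-0.12, adjusted p = 0.195), nor without siBDNF replicate 1, 2 or 3 (adjusted p = 0.0542, 0.156 and 0.0618).

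ETV4 and ETV5 encode ETS transcription factors of the PEA3 family, whose mRNAs rise with FGF and ERK signaling. In these cells they differed from each other. ETV5 held 58.6, 63.1 and 61.1 CPM in proliferating and 85.1, 85.6 and 82 CPM in siCtrl senescent libraries, and rose 1.38-fold (log2 fold change 0.47, SE 0.048, adjusted p = 8.57e-09). It held 77.9, 75.2 and 80.0 CPM with siNTRK2 and 79.0, 75.5 and 80.6 CPM with siBDNF, so both sets of libraries were below the siCtrl range and overlapped each other. Neither change passed (-0.12, 95% interval -0.22 to -0.02, adjusted p = 0.0886 with siNTRK2, and -0.10, 95% interval -0.20 to -0.01, adjusted p = 0.136 with siBDNF), and the difference between the siRNAs was -0.01 (95% interval -0.11 to 0.09). ETV5 was thus the member with the smallest difference between siNTRK2 and siBDNF. Of its 5773 exon bases, 164 are shared with DGKG on the same strand.

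ETV4 was lower in siCtrl senescent libraries (18.7, 16.6 and 15.9 CPM) than in proliferating ones (20.8, 19.6 and 20.6 CPM), without overlap (0.840-fold, log2 fold change -0.25, SE 0.072, adjusted p = 0.00420). It fell further with siNTRK2, to 15.7, 14.4 and 14.2 CPM (-0.21, SE 0.073, adjusted p = 0.0448), all below the siCtrl range. That call sits next to the threshold and was lost without siCtrl senescent replicate 1 (-0.14, adjusted p = 0.269), siCtrl senescent replicate 2 (adjusted p = 0.0630), siNTRK2 replicate 2 (adjusted p = 0.128) or siNTRK2 replicate 3 (adjusted p = 0.149). It was also lost with library totals (adjusted p = 0.0733), without a count filter (0.114), with only the 2 groups in the fit (0.0987) and with the offset for length and GC content (0.106). With siBDNF the ETV4 libraries held 19.5, 19.3 and 18.4 CPM, overlapping the highest siCtrl library (0.16, 95% interval 0.01 to 0.31, adjusted p = 0.134). The difference between the siRNAs did pass (-0.36, SE 0.073, adjusted p = 8.22e-04), with every siNTRK2 library below every siBDNF library. ETV4 shares 68 of 3515 exon bases with DHX8 on the opposite strand, and DHX8 passed the test in none of the 4 comparisons.

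PHLDA1 encodes a pleckstrin homology-like protein whose mRNA is induced soon after growth factor addition, and it was the most abundant of the 10. It held 328, 305 and 304 CPM in proliferating libraries and 267, 268 and 251 CPM in siCtrl senescent libraries, a fall to 0.840-fold (log2 fold change -0.25, SE 0.049, adjusted p = 1.07e-04). With siNTRK2 the libraries held 241, 215 and 247 CPM, below the siCtrl range, and with siBDNF 317, 310 and 321 CPM, above it and within the proliferating range. The siBDNF rise was 1.21-fold (0.27, SE 0.049, adjusted p = 3.04e-04). The siNTRK2 fall (-0.16, SE 0.049, adjusted p = 0.0203) was lost without siCtrl senescent replicate 1 (-0.15, adjusted p = 0.0862), siCtrl senescent replicate 2 (-0.13, adjusted p = 0.0760) or siNTRK2 replicate 2 (-0.10, adjusted p = 0.176). The direct comparison gave -0.43 (SE 0.050, adjusted p = 5.37e-07).

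The reading of PHLDA1 has a further limit, since 553 of its 5913 exon bases overlap PHLDA1-AS1 on the opposite strand. PHLDA1-AS1 is short, at 83.9 CPM or 147 CPM per kilobase of exon in siCtrl senescent cells. The shared bases are therefore most of the exons of PHLDA1-AS1, so it is not a separate measure. Whether the counting used the strand is not given in the sources used here. PHLDA1-AS1 moved with PHLDA1, at -0.25 with senescence (adjusted p = 2.32e-04), -0.26 with siNTRK2 (adjusted p = 0.00111), 0.15 with siBDNF (adjusted p = 0.0501) and -0.40 between the siRNAs (adjusted p = 4.91e-06), so the counts of this pair are uncertain. With the offset for length and GC content, PHLDA1 itself was at -0.14 with senescence, -0.25 with siNTRK2 and 0.17 with siBDNF, in the same directions and still called.

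Levels can be set side by side between genes only per length, here as CPM per kilobase of merged exons (GENCODE models on GRCh37). In siCtrl senescent cells the order was PHLDA1 (44.3 ± 1.61), DUSP6 (25.3 ± 0.921), DUSP5 (22.2 ± 1.30), ETV5 (14.6 ± 0.340), SPRY2 (13.1 ± 0.592), SPRY4 (11.1 ± 0.702), SPRED2 (8.20 ± 0.160), SPRED1 (5.87 ± 0.275), ETV4 (4.86 ± 0.415) and DUSP4 (0.415 ± 0.0308, all SD, n = 3), and no neighbours in it overlapped between libraries. In proliferating cells DUSP6 was at 8.54 ± 0.336 (SD, n = 3), behind PHLDA1, DUSP5 and ETV5, and overlapped SPRED2, which in turn overlapped SPRED1. ETV4 and SPRY4 also overlapped in proliferating cells, at 5.79 ± 0.173 and 5.74 ± 0.353 (SD, n = 3). With siNTRK2 the order was that of siCtrl senescent cells, with ETV5 and SPRY2 overlapping. With siBDNF, SPRY2 (16.6 ± 0.295) and SPRY4 (15.9 ± 0.156) stood above ETV5 (13.6 ± 0.446, SD, n = 3), and ETV4 and SPRED1 overlapped.

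**Figure D3:**
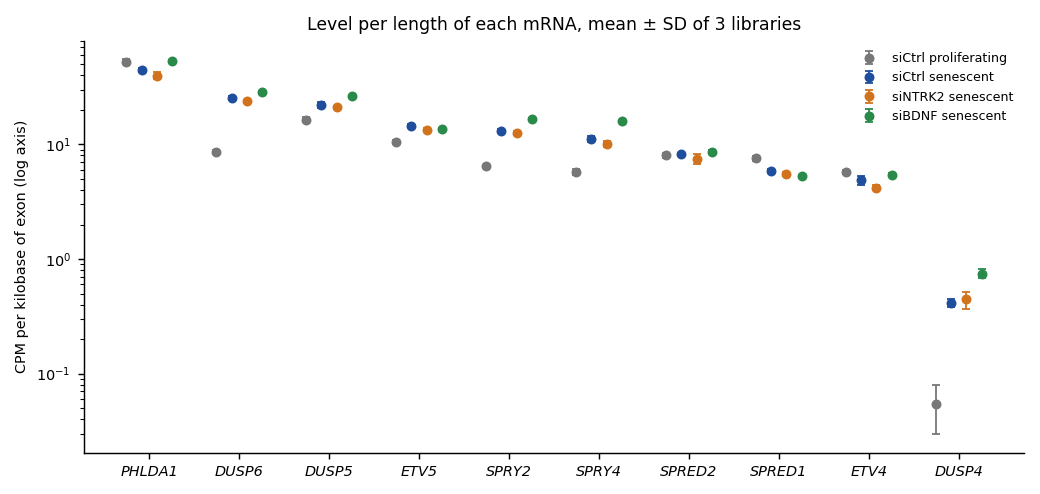
Level per length (y axis, CPM per kilobase of exon, log scale) of the 10 mRNAs (x axis, ordered by their level in siCtrl senescent cells), as mean ± SD of 3 libraries in each group. PHLDA1 is highest in all groups, DUSP4 is lowest in all, and the proliferating points of DUSP4, DUSP6, SPRY2 and SPRY4 lie well below their senescent points.

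Other known ERK outputs, 13 of 14 of them tested, moved in both directions with senescence. In that comparison 6 rose and 4 fell (median 0.20), and the largest changes were in CCND1, which encodes cyclin D1 (1.76, SE 0.041, adjusted p = 2.18e-21), HBEGF, an EGF receptor ligand (1.15, SE 0.059, adjusted p = 1.22e-14), and SPRED3 (0.74, SE 0.151, adjusted p = 1.56e-04). The 4 that fell with senescence were EGR1 (-0.56, adjusted p = 8.73e-08), the Sprouty gene SPRY1 (-0.47, adjusted p = 0.00785), the phosphatase gene DUSP7 (-0.40, adjusted p = 5.82e-06) and MYC (-0.39, adjusted p = 5.71e-06). With siBDNF 5 rose and 0 fell by edgeR, also 0 at an unadjusted p under 0.05 (median 0.21). They included ETV1, the remaining PEA3 factor (0.40, SE 0.063, adjusted p = 5.71e-05), IER3, an immediate early gene (0.35, SE 0.055, adjusted p = 4.93e-05), and EPHA4, an ephrin receptor (0.27, SE 0.066, adjusted p = 0.00482). With siNTRK2 3 rose and 4 fell (median 0.067), EGR1, an immediate early transcription factor (-0.26, SE 0.068, adjusted p = 0.00790), and IER3 (-0.25, SE 0.055, adjusted p = 0.00165) falling and the ephrin receptor EPHA2 rising (0.23, SE 0.053, adjusted p = 0.00259). Between the siRNAs 5 were lower with siNTRK2 and 0 higher, also 0 at an unadjusted p under 0.05 (median -0.10), led by IER3 (-0.60, SE 0.055, adjusted p = 1.28e-08), EGR1 (-0.35, SE 0.068, adjusted p = 4.88e-04) and ETV1 (-0.33, SE 0.063, adjusted p = 4.57e-04). Among all genes, 29.8% were called higher and 28.3% lower with senescence, 11.1% and 10.0% with siNTRK2, and 10.3% and 10.2% with siBDNF. For siNTRK2 against siBDNF the shares were 8.84% higher and 7.86% lower.

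The 5 other MAP kinase phosphatases act mainly on JNK and p38 or on several MAP kinases. They had 2 calls with senescence, 1 with each siRNA and 3 between the siRNAs. Shares of all genes called higher and lower were 29.8% and 28.3% with senescence, 11.1% and 10.0% with siNTRK2, and 10.3% and 10.2% with siBDNF. For siNTRK2 against siBDNF they were 8.84% and 7.86%. DUSP1 rose with senescence (0.85, SE 0.048, adjusted p = 7.58e-14) and DUSP16 fell (-0.28, SE 0.090, adjusted p = 0.00966). DUSP8 was called with siNTRK2 (0.42, SE 0.137, adjusted p = 0.0293) and DUSP10 with siBDNF (-0.39, SE 0.056, adjusted p = 1.78e-05), each being the only call of the list in its comparison. Against siBDNF, siNTRK2 gave 2 higher and 1 lower, DUSP10 (0.26, SE 0.056, adjusted p = 0.00158) and DUSP8 (0.40, SE 0.138, adjusted p = 0.0499) being higher and the low-abundance DUSP2 lower (-0.99, SE 0.288, adjusted p = 0.0190).

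Upstream of these outputs, the 13 mRNAs of the RAS-RAF-MEK-ERK core changed in both directions with senescence, 6 higher and 4 lower. NRAS, encoding one of the RAS proteins, fell (-1.36, SE 0.053, adjusted p = 4.66e-17), and MAP2K1, encoding MEK1, rose (0.49, SE 0.048, adjusted p = 3.90e-09). With siNTRK2 5 fell and 0 rose by edgeR, also 0 at an unadjusted p under 0.05, among them MAPK3, which encodes ERK1 (-0.40, SE 0.049, adjusted p = 1.72e-06), NRAS (-0.31, SE 0.053, adjusted p = 1.64e-04) and RRAS (-0.24, SE 0.058, adjusted p = 0.00361). With siBDNF 6 fell, MAPK3 (-0.32, SE 0.049, adjusted p = 3.50e-05) and HRAS (-0.32, SE 0.063, adjusted p = 6.17e-04) included, and 1 rose, NRAS (0.38, SE 0.053, adjusted p = 1.26e-05), with 2 higher at an unadjusted p under 0.05. Between the siRNAs NRAS (-0.68, SE 0.053, adjusted p = 1.03e-09) and RRAS (-0.23, SE 0.058, adjusted p = 0.00626) were lower with siNTRK2. Of all genes, 29.8% were called higher and 28.3% lower with senescence, 11.1% and 10.0% with siNTRK2, and 10.3% and 10.2% with siBDNF. In the direct comparison 8.84% were higher and 7.86% lower with siNTRK2.

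Of 12 adaptors and RAS regulators, 6 rose and 5 fell with senescence, with the adaptors SHC1 (0.55, SE 0.042, adjusted p = 3.00e-11) and GRB2 (0.42, SE 0.043, adjusted p = 7.91e-09) rising and the docking protein GAB1 falling (-0.51, SE 0.135, adjusted p = 0.00211). SHC1 was the single call with siNTRK2 (-0.24, SE 0.042, adjusted p = 1.68e-04) and the single lower call with siBDNF (-0.26, SE 0.042, adjusted p = 6.50e-05), and it did not pass between the siRNAs (0.02, adjusted p = 0.770). With siBDNF 3 others rose, the 3 being RASA2 and NF1, which switch RAS off (0.55, SE 0.105, adjusted p = 4.72e-04, and 0.37, SE 0.060, adjusted p = 7.55e-05), and the ubiquitin ligase CBL (0.27, SE 0.058, adjusted p = 0.00155). All 3 were lower with siNTRK2 than with siBDNF (RASA2 -0.30, adjusted p = 0.0478, NF1 -0.26, adjusted p = 0.00378, CBL -0.18, adjusted p = 0.0322). Over all genes the shares called higher and lower were 29.8% and 28.3% with senescence and 11.1% and 10.0% with siNTRK2. They were 10.3% and 10.2% with siBDNF, and 8.84% and 7.86% for siNTRK2 against siBDNF.

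Of the 7 receptor tyrosine kinase mRNAs, NTRK2 among them, 1 rose and 5 fell with senescence (median -0.47), including the PDGF receptors PDGFRB (-1.30, SE 0.043, adjusted p = 1.86e-18) and PDGFRA (-1.04, SE 0.042, adjusted p = 1.39e-16) and EGFR (-0.56, SE 0.046, adjusted p = 1.78e-10). The single rise was that of MET, the HGF receptor (0.43, SE 0.058, adjusted p = 7.31e-07). EGFR was higher than with siCtrl in senescent cells with siNTRK2 (0.24, SE 0.046, adjusted p = 4.67e-04) and with siBDNF (0.32, SE 0.047, adjusted p = 1.80e-05), and MET was at 0.21 (adjusted p = 0.0105) and 0.25 (adjusted p = 0.00276). With siNTRK2 3 rose, PDGFRB (0.28, SE 0.043, adjusted p = 3.90e-05) with EGFR and MET, and 1, NTRK2, fell. With siBDNF 2 rose and 3 fell, FGFR1 (-0.24, SE 0.043, adjusted p = 2.18e-04), PDGFRA (-0.24, SE 0.043, adjusted p = 2.14e-04) and PDGFRB (-0.14, SE 0.043, adjusted p = 0.0228). Against siBDNF, siNTRK2 left PDGFRB (0.41), PDGFRA (0.29) and FGFR1 (0.22) higher, with adjusted p = 1.04e-07, 2.06e-05 and 8.04e-04. Beside these counts, 29.8% of all genes were called higher and 28.3% lower with senescence, and 11.1% and 10.0% with siNTRK2. The shares were 10.3% and 10.2% with siBDNF, and 8.84% and 7.86% for siNTRK2 against siBDNF.

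**Figure D4:**
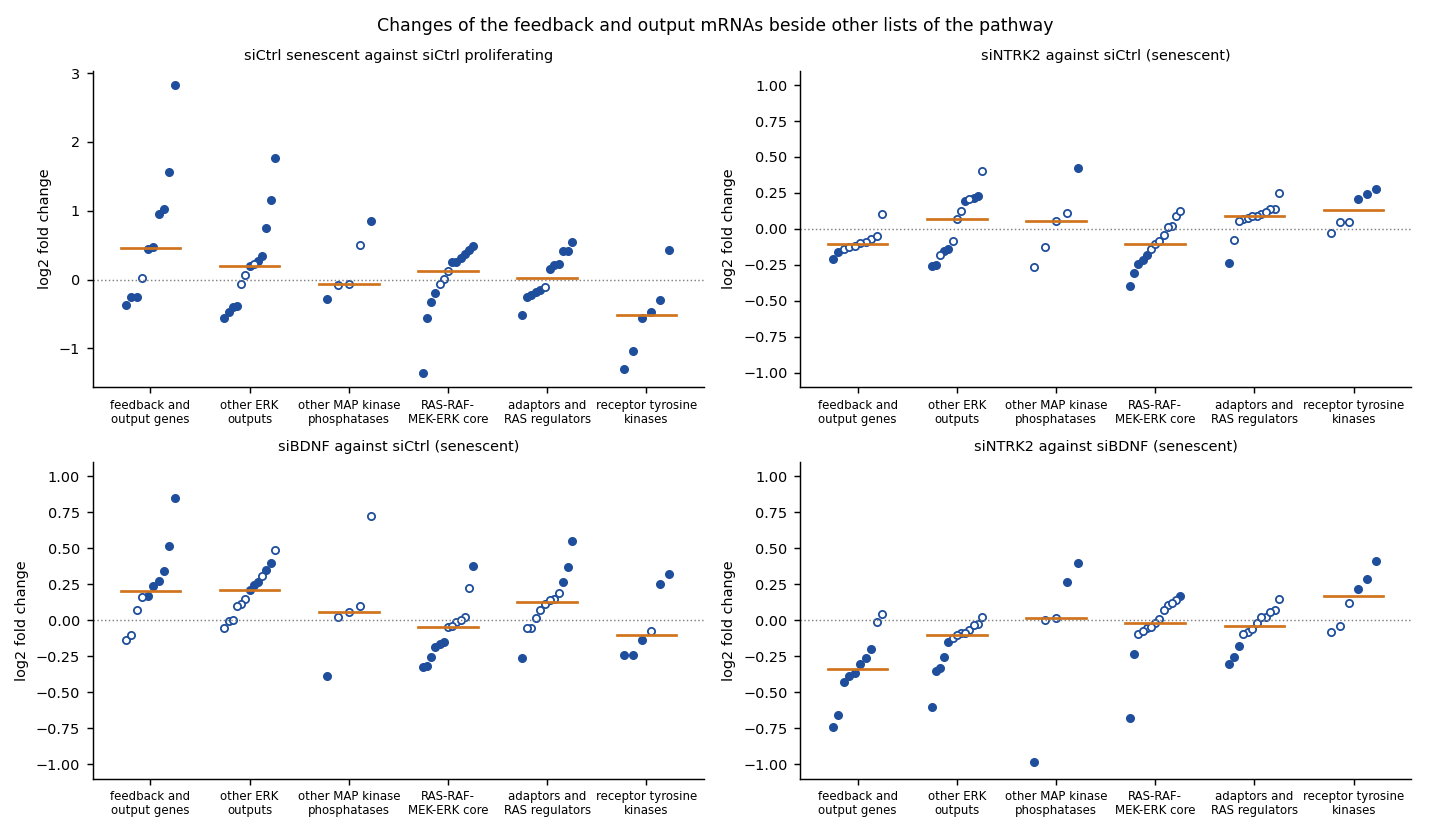
Log2 fold change (y axis) of each tested mRNA except NTRK2 in the 10 feedback and output genes and in 5 other lists of the pathway (x axis), 1 panel per comparison. Filled points mark an adjusted p under 0.05 from edgeR, and a line marks the median of the points drawn for each list. The receptor line therefore leaves out NTRK2, which the receptor medians in the text include. In the siNTRK2 against siBDNF panel the median of the feedback and output genes is -0.34 and that of the RAS-RAF-MEK-ERK core -0.020, and the senescence panel has a wider y axis.

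Over the 12 libraries, the genes whose log2 CPM was most like that of DUSP6, among 15111 compared, were MCFD2 (Pearson r = 0.998), ENC1 (0.997) and NRG1 (0.997). For SPRY4 they were ABCA1 (0.991), KLF4 (0.991) and RAB3B (0.989). These values describe likeness across libraries that share their group structure and normalization, and they carry no test.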

How the data were processed

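RNA-seq was analysed from 12 libraries, 3 in each of 4 groups taken from the sample labels. The authors made stranded libraries from polyadenylated RNA, trimmed adapters with Cutadapt, aligned paired reads to hg19 with STAR 2.4.0j (Ensembl annotation) and counted reads per gene with featureCounts 1.6.4. The deposited values are raw counts, whole numbers per Ensembl gene, without normalization. The strand setting is not given in the sources used here. A table of gene names paired 55538 of 57773 identifiers with a symbol, and all 10 members matched. Gene models for exon length and overlaps came from GENCODE on GRCh37 and are not the ones the authors counted with, and promoters came from RefSeq on GRCh38.p14.

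The test was that of edgeR 4.0.16 (R 4.3.3), with TMM scaling, filterByExpr over the 4 groups (21518 genes), 1 quasi-likelihood fit of all 12 libraries with 1 term per group, and Benjamini-Hochberg adjustment over all genes tested. A gene was called at an adjusted p under 0.05. Tests were two-sided, and SE was taken from the log2 fold change and its F statistic (the ratio of its size to the root of F). The study used DESeq2 with an absolute log2 fold change over 1, and both (DESeq2 1.42.0) were run as alternatives, together with DESeq2 size factors, library totals, other count filters, only the groups compared, the replicate number as a block, each library left out, and, added after the data were seen, an offset for length and GC content. The fit was tested on simulated counts. CPM are TMM-scaled. All pairs of libraries within groups differed by more than counting noise (chi-square values between 3.92 and 13.6 per gene), so no library was taken for a second deposit of another and each was counted once in n. This does not tell separate cultures from separate preparations of the same RNA.

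Named were the 10 members, NTRK2, BDNF and, for each other list, up to 3 called genes of largest absolute change in a comparison with a mean of at least 1 CPM, plus the 3 genes most like DUSP6 and SPRY4, except that some genes of the core list are not reported here. The members and lists were chosen with earlier results of these data known. DUSP2, MET with senescence, SHC1, PDGFRA and PDGFRB with siBDNF, the check genes that were not called, overlapping genes and marker genes at or near 0 were named after their values were seen. So were EGR1, SPRY1, DUSP7 and MYC with senescence.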

Additional observations from a re-analysis of the deposited data

Results flagged for a closer look

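Each of the following mRNAs differed between siNTRK2 and siBDNF in the direct edgeR comparison of these groups, so the changes with the siRNAs are not alike. Values are log2 fold changes of siNTRK2 against siBDNF, followed by the change of each siRNA against the shared siCtrl senescent libraries. DUSP4 gave -0.74 (siNTRK2 0.11, siBDNF 0.85), SPRY4 -0.66 (-0.14 and 0.51), PHLDA1 -0.43 (-0.16 and 0.27), and SPRY2 -0.39 (-0.05 and 0.34). ETV4 gave -0.36 (-0.21 and 0.16), DUSP5 -0.31 (-0.07 and 0.24), DUSP6 -0.26 (-0.09 and 0.17), and SPRED2 -0.20 (-0.13 and 0.07). For 7 of these 8 the lower level with siNTRK2 stayed called under every library left out in turn. SPRED2 was the exception, its call being lost in 4 of those fits. The groups of 3 libraries were too small to test for a library far from the others.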

How the results depend on the processing

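With the study's cutoff of an absolute log2 fold change over 1, 3 members were higher and 0 lower with senescence, 0 lower with siNTRK2, 0 higher with siBDNF and 0 lower for siNTRK2 against siBDNF. The count of 2 lower with siNTRK2 was the least stable. It was 1 with library totals, 1 without a count filter, 1 with only the 2 groups in the fit and 4 with the offset for length and GC content (SPRY4, SPRED1, ETV5 and PHLDA1), and 0 to 3 when each library was left out. The count of 0 lower with siBDNF became 1 (SPRED1) with DESeq2, with only the 2 groups and with the offset, and ranged from 0 to 1 when libraries were left out. ETV4 was called higher with siBDNF with library totals (0.22, adjusted p = 0.0369) and with the offset (0.23, adjusted p = 0.0107). Requiring at least 10 counts in every library removed DUSP4. When each library was left out, signs turned for some changes that were near 0 and not called: SPRED2 with senescence ranged from -0.0067 (without proliferating replicate 3) to 0.049, DUSP4 with siNTRK2 from -0.044 (without siNTRK2 replicate 1) to 0.21, and ETV5 between the siRNAs from -0.033 to 0.017 (without siNTRK2 replicate 2), with 0.0014 and 0.0099 without siBDNF replicates 1 and 3. Libraries with the same replicate number did not deviate together (mean correlation 0.013, against -0.0066 for other numbers), and a replicate block left all counts as they were (6 higher and 3 lower with senescence, 2 lower with siNTRK2, 6 higher with siBDNF, 8 lower between the siRNAs). Apart from fits with fewer libraries or genes, the cause was not tested. Depth limits DUSP4, with as few as 7 counts in a library.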
